A study of Mus musculus with 10 samples.

Results

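The LIM homeobox genes Lhx1, Lhx2, Lhx3, Lhx4, Lhx5, Lhx6, Lhx8, Lhx9, Isl1 and Isl2 are 10 of the 22367 protein-coding genes of the GENCODE vM1 annotation. They were taken by name, and a site of any list was assigned to a gene when it shared at least 1 bp with the gene body or the 5 kb on either side of it. In mouse embryonic stem cells (ESCs), all 10 genes carried Suz12 sites, all 10 carried Suz12 sites that the authors listed as depleted upon Pcl3 knockdown, and all 10 carried Pcl3 sites, whereas 2 genes, Lhx1 and Lhx3, carried sites of decreased H3K27me3.

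LIM homeodomain proteins are transcription factors that bind DNA through a homeodomain and bind cofactors through a pair of LIM zinc finger domains. They specify neuronal subtypes and the primordia of organs such as the pituitary, heart, kidney and eye, and they are typically silent in ESCs. Polycomb repressive complex 2 (PRC2) methylates histone H3 at lysine 27, giving H3K27me3, a mark of repressed developmental genes. Suz12 is a core subunit of PRC2, and Pcl3 is a Polycomb-like protein that associates with it.

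The series comprises 6 ChIP-seq libraries and 4 input DNA libraries. Suz12 (FlagM2 antibody against the TAP tag) and H3K27me3 (Upstate antibody) were each profiled in 1 library from ESCs expressing scramble shRNA and 1 library from ESCs expressing Pcl3 shRNA. All of these cells derived from BayGenomics gene trap line XG122 and had the genotype Suz12 Suz12TAP/+, so that the scramble controls also carried the tagged allele. Pcl3 was profiled with FlagM2 in 2 libraries of E14 ESCs that carried tagged Pcl3 (Pcl3-TAP) together with an shRNA against wild type Pcl3, shRNA7 in 1 library and shRNA6 in the other. Clones were picked after the shRNA viruses were introduced, and the labels do not say whether a library came from 1 clone. The Pcl3 list therefore describes other cells than the Suz12 lists. The deposited files are 4 lists of sites with a p-value each, for Suz12 binding in scramble cells, Suz12 depletion, H3K27me3 depletion and Pcl3 binding. They hold no expression values, so the ESC label could not be checked against marker genes, and they hold no reads per site or per library, so the depth and the error of a single site are unknown. Each condition has 1 library, or 2 libraries behind 1 list for Pcl3, and no difference could be tested against replicates. The counts below are descriptions of these libraries, set beside the same counts over all genes or all sites.

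A Suz12 site in the depleted list is a row copied from the list of Suz12 binding, and the p-value deposited with it measures binding in scramble cells and not the size of the loss. Suz12 sites that are not in the depleted list are called retained sites here, which says only that the authors' threshold for loss was not passed. The strength of a site is the −log10 of its deposited p-value, and p-values written as 0 were placed at the largest finite value, 307.

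Sequences of 200 bp are given from mm9 on the strand of the gene, with CpG dinucleotides in capitals, to show the DNA under the retained sites and beside them. The 5 retained sites at these genes lie at Lhx1, Lhx2 and Lhx3, and a stretch of each is printed first. At Lhx3 the stretch just before the outermost gene start is shown, which lies inside the retained site over that start, and the other 4 are the centers of their sites.
Lhx1 retained, downstream (chr11:84329676-84329875, minus strand): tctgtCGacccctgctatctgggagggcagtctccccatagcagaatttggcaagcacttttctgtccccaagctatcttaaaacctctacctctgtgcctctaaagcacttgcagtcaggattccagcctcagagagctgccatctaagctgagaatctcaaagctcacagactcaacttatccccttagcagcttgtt
Lhx2 retained, intron (chr2:38196126-38196325, plus strand): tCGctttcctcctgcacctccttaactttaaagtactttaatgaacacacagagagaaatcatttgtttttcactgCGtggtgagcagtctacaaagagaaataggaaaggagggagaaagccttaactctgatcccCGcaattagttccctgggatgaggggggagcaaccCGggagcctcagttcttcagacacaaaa
Lhx2 retained, coding exon (chr2:38224351-38224550, plus strand): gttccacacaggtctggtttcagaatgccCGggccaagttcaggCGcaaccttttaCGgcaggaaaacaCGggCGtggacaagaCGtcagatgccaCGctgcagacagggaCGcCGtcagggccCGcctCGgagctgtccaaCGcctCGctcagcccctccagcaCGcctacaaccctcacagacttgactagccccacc
Lhx3 retained, intron (chr2:26063076-26063275, minus strand): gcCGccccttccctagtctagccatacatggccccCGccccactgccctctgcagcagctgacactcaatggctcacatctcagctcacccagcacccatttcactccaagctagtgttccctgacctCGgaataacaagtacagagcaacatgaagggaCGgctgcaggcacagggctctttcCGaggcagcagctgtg
Lhx3 retained, over the outermost start (chr2:26063770-26063969, minus strand): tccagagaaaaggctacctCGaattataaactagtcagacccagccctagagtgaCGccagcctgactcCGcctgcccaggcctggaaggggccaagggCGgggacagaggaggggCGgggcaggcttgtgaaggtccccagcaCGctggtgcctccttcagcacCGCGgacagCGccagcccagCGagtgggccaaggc

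The next sequences are the centers of 3 depleted Suz12 sites of Lhx2 and Lhx3, printed to be read against the retained centers.
Lhx2 depleted, 3250 bp site (chr2:38203276-38203475, plus strand): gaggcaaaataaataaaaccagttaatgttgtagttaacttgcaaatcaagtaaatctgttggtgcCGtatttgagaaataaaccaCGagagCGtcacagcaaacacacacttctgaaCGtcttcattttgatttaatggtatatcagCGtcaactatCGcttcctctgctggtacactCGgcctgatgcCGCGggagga
Lhx3 depleted, 3850 bp site (chr2:26058076-26058275, minus strand): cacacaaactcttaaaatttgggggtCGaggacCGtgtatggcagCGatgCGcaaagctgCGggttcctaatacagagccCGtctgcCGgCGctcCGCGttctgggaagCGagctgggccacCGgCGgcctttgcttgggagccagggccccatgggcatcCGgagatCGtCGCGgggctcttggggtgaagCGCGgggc
Lhx3 depleted, 2400 bp site (chr2:26061551-26061750, minus strand): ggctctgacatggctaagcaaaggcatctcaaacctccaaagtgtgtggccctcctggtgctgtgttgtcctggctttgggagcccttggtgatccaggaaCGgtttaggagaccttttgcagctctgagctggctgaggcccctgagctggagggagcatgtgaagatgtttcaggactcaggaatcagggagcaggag

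Centers of retained and depleted sites overlapped in CpG content. The central 200 bp of the 5 retained sites held 1 CpG at Lhx1, 4 and 14 at Lhx2, and 5 and 11 at Lhx3. Those of the 8 depleted sites of the same genes held 19 and 12 at Lhx1, 2, 9, 3 and 3 at Lhx2, and 19 and 1 at Lhx3. The 19 at Lhx1 belong to a site over the start of the neighbouring gene Aatf.

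A last set shows that wide depleted sites held both CpG-dense and CpG-poor stretches. The 200 bp before the Lhx2 and Isl1 gene starts, inside depleted sites, held 24 and 27 CpG, the latter with 3 copies of GCGCGC. The center of the 8300 bp site over the Lhx4 start, whose p-value was written as 0, held 0 CpG.
Lhx2 depleted, before the start (chr2:38194601-38194800, plus strand): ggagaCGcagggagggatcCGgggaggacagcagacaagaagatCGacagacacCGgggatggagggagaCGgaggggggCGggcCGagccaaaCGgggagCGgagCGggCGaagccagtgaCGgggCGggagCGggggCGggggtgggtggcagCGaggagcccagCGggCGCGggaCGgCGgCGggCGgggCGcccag
Isl1 depleted, before the start (chr13:117099897-117100096, minus strand): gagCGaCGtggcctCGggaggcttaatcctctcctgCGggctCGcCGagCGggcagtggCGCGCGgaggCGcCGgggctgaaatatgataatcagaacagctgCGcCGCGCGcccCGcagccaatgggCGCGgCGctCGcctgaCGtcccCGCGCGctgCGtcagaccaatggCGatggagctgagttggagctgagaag
Lhx4 depleted, center of the site (chr1:157586651-157586850, minus strand): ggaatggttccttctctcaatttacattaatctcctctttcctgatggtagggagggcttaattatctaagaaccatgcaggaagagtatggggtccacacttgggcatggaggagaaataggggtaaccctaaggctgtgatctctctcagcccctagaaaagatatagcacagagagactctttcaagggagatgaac

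The count of genes was first set against all protein-coding genes. A Suz12 site was present at 10 of 10 LIM homeobox genes and at 28.8% of protein-coding genes, and a Suz12-depleted site at 10 of 10 and at 20.7%. A Pcl3 site was present at 10 of 10 LIM homeobox genes and at 14.7% of protein-coding genes. For decreased H3K27me3 the count was 2 of 10, beside 3.13% of protein-coding genes. Among the 6442 protein-coding genes that held a Suz12 site, 71.7% had a depleted site, 47.7% a Pcl3 site and 10.5% a site of decreased H3K27me3. Thus the LIM homeobox genes stood above the background of all genes for each list, with Lhx1 and Lhx3 alone behind the H3K27me3 count.

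Much of this went with how much of each gene Suz12 covered. Suz12 sites covered a median of 8550 bp per LIM homeobox gene, between 5600 bp at Lhx8 and 18650 bp at Lhx2, beside a median of 1400 bp for protein-coding genes with a site. All 10 genes were among the 500 protein-coding genes with the most Suz12-covered bases, 6 were among the first 250 and 3 among the first 100. Of the 432 protein-coding genes with at least 5600 bp in Suz12 sites, 100% had a depleted site, 99.3% had a Pcl3 site and 40.3% had a site of decreased H3K27me3. Set beside genes of like Suz12 cover, the 10 of 10 for depletion and for Pcl3 were therefore the background level, and the 2 of 10 for H3K27me3 was the lower figure, over 10 genes and with no test.

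In order of Suz12-covered length, Lhx2 (18650 bp) was followed by Lhx5 (14256 bp), Lhx1 (13350 bp) and Lhx9 (10000 bp). Lhx4 had 9250 bp, Isl2 7850 bp and Lhx3 7250 bp. Lhx6 had 7150 bp, Isl1 6900 bp and Lhx8 5600 bp. Lhx3, Lhx6 and Isl1 differed by less than the 400 bp window with which the authors scanned the genome, and with 1 library no neighbours in this order could be told apart by a test.

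**Figure D1:**
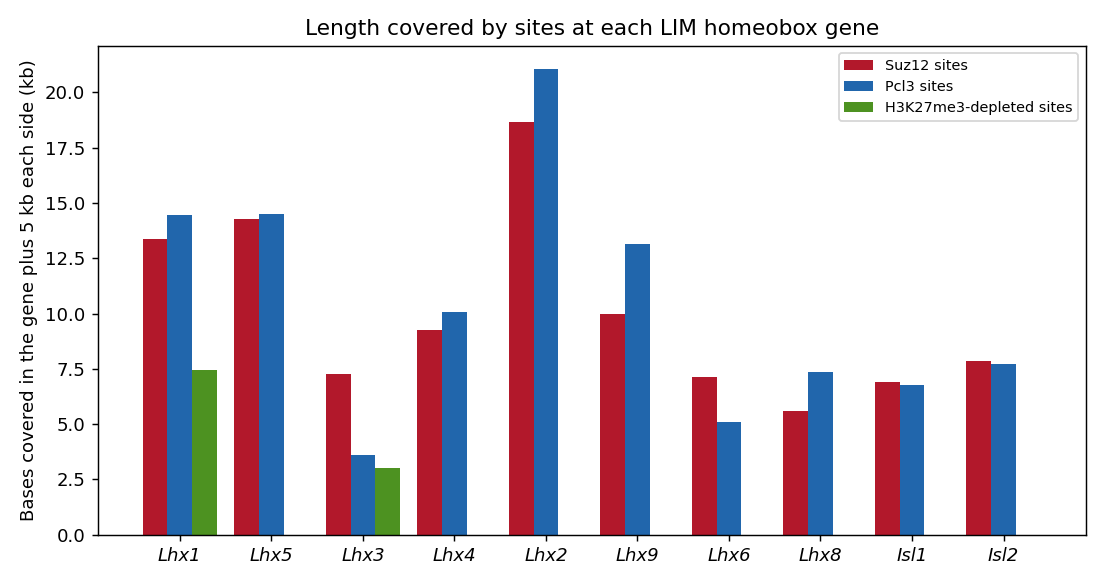
Bars give the length in kb covered by Suz12 sites, Pcl3 sites and H3K27me3-depleted sites in each gene plus 5 kb on each side, with 1 list per mark and no error bars. Suz12 and Pcl3 cover are close in most genes, lowest for Suz12 at Lhx8, and H3K27me3-depleted cover is present at Lhx1 and Lhx3 only.

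Pcl3 sites covered a median of 8875 bp per gene (3600 bp to 21050 bp), beside 1200 bp for protein-coding genes with a Pcl3 site. Over the 10 genes, 90.7% of the bases in Suz12 sites were also in Pcl3 sites, beside 48.8% for all Suz12 sites, and 87.7% of the bases in Pcl3 sites were in Suz12 sites. The Pcl3 cover was longer than the Suz12 cover at 6 genes (Lhx1, Lhx2, Lhx4, Lhx5, Lhx8 and Lhx9) and shorter at the other 4. It was shortest relative to Suz12 at Lhx3, where 49.7% of the Suz12 bases were in Pcl3 sites.

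**Figure D2:**
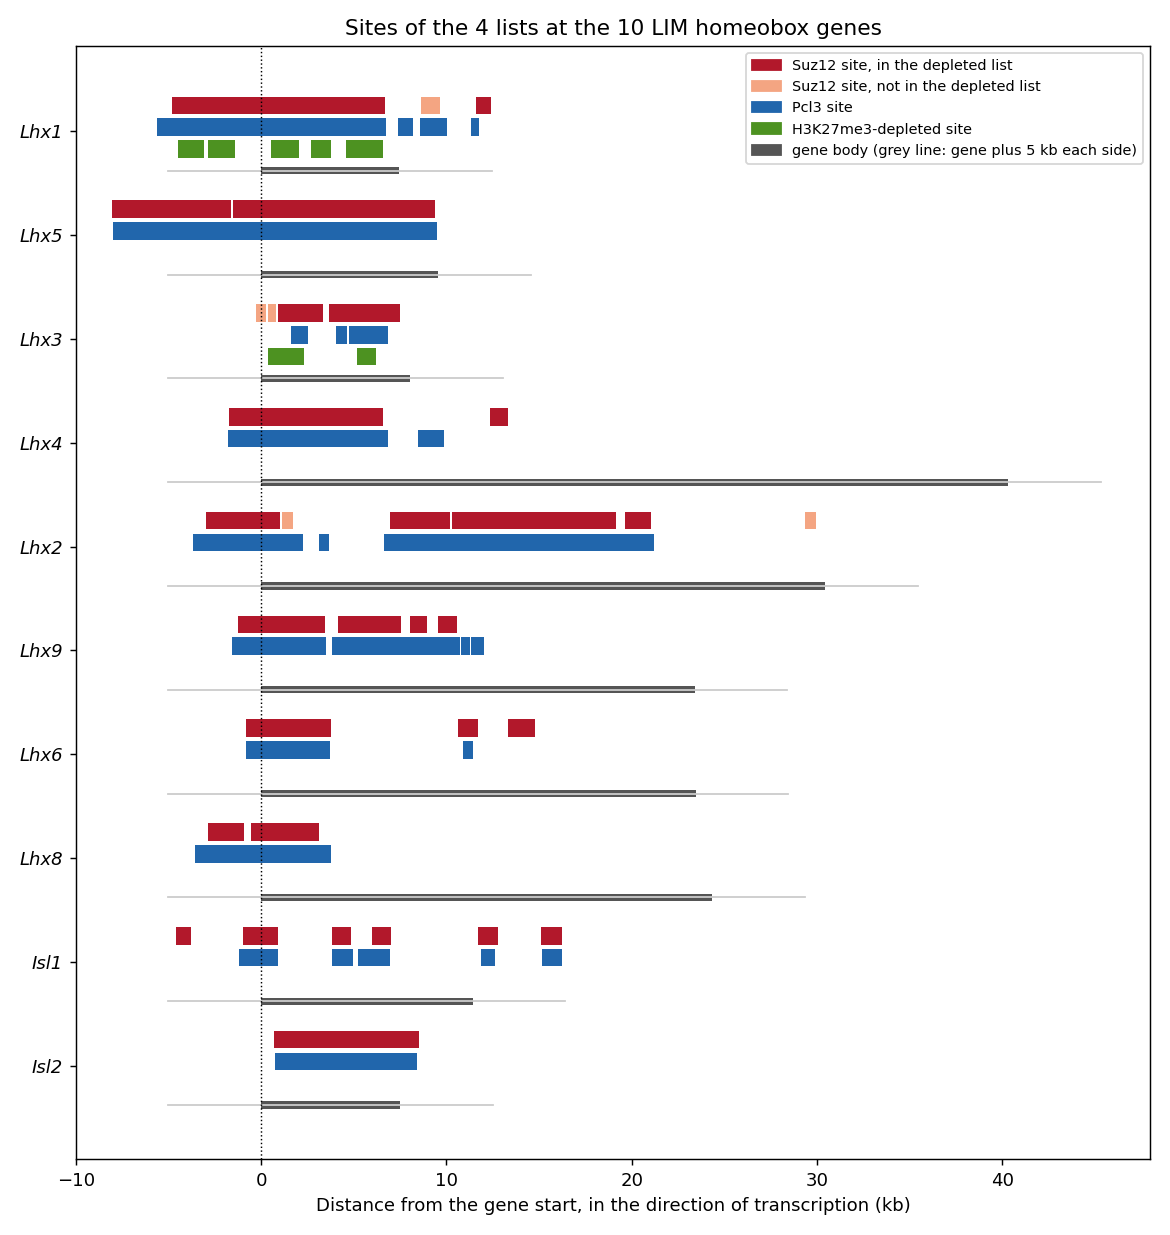
Map of the sites of the 4 lists at the 10 genes, aligned at the outermost gene start (0) with transcription to the right and distance in kb; dark bars at the bottom of each row are gene bodies and thin grey lines the 5 kb on either side. Wide depleted Suz12 sites cover or adjoin the starts of most genes, Pcl3 sites follow them closely, and the 5 retained sites at Lhx1, Lhx2 and Lhx3 are narrow.

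Lhx1, which acts in the head organizer and in kidney development, and Lhx5, which acts in forebrain development, were covered by Suz12 over most of the gene body, 89.6% at Lhx1 and 98.3% at Lhx5. Lhx1 (ENSMUSG00000018698.7) lies on the minus strand of chromosome 11 from 84331479 to 84338923. A Suz12 site of 11500 bp, from 84332251 to 84343750, ran from 6672 bp inside the gene to 4827 bp before its start, with a p-value written as 0. It was depleted, ranked 14 by width among all 8876 Suz12 sites, and also held the start of the lincRNA 1500016L03Rik, 239 bp from the Lhx1 start. A Pcl3 site of 12350 bp lay over it, from 84332201 to 84344550. The other Suz12 sites of Lhx1 lay past its 3′ end. One was a depleted site of 800 bp (p-value of 5.24e-16) over the start of Aatf, the neighbouring gene. The other was a retained site of 1050 bp, from 84329251 to 84330300, with a p-value of 4.18e-18, and this was the strongest and widest of the 5 retained sites. It shared bases with a Pcl3 site of 1450 bp with a p-value of 2.53e-30. So at Lhx1 the retained site was stronger than the depleted site over Aatf. The retained site lay wholly within its Pcl3 site. Of the site over Aatf, 150 bp (18.8%) lay in a Pcl3 site of 450 bp with a p-value of 9.77e-08.

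Lhx1 carried 5 of the 7 sites of decreased H3K27me3, and all 5 lay inside its 11500 bp Suz12 site. They covered 7450 bp, or 55.8% of the Suz12-covered bases of the gene. The strongest, from 84332351 to 84334350, had a p-value of 1.69e-14 and ranked 66 among the 678 sites of that list. The weakest, from 84340351 to 84341800, had a p-value of 4.51e-07, above the authors' stated cutoff of 1e-07. Lhx1 lies on chromosome 11, where 28.4% of the genes with a Suz12 site had a site of decreased H3K27me3, beside 8.51% on the other chromosomes. The part of the chromosome in the Lhx1 result was not tested.

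Lhx5, on the plus strand of chromosome 5 from 120881895 to 120891466, was also covered over 97% of the 5 kb upstream. Its Suz12 sites measured 6400 bp (120873851 to 120880250) and 10900 bp (120880401 to 120891300). Both p-values were written as 0 and both sites were depleted. A Pcl3 site of 17500 bp, from 120873901 to 120891400, spanned both and ranked 11 by width among the 5242 Pcl3 sites. No site of decreased H3K27me3 was listed at Lhx5, which says only that the authors' threshold was not passed there. Of the 432 genes with at least 5600 bp in Suz12 sites, 40.3% had such a site. The paralogs thus had Suz12 and Pcl3 cover of like length (13350 bp and 14256 bp for Suz12, 14473 bp and 14506 bp for Pcl3), with listed loss of H3K27me3 at Lhx1 alone.

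Lhx3 and Lhx4, which specify pituitary cells and motor neurons, differed in where Suz12 lay. Lhx3, on the minus strand of chromosome 2 from 26055732 to 26063769, had 4 Suz12 sites. The strongest was a depleted site of 3850 bp in the 3′ part of the gene (26056251 to 26060100, p-value written as 0), followed by a depleted site of 2400 bp (26060451 to 26062850, p-value of 1.68e-92) that covered the start of the coding transcript Lhx3-001, 1674 bp inside the gene. The retained sites lay around the outermost start, that of Lhx3-002. They measured 450 bp (26062951 to 26063400, p-value of 1.08e-08) and 550 bp (26063501 to 26064050, p-value of 4.55e-09). Neither shared bases with a Pcl3 site, the nearest Pcl3 sites being 800 bp and 1350 bp away. Suz12 sites at Lhx3 were therefore strong in the 3′ part of the gene and weak around its outermost start, and the Pcl3 sites stopped short of that start.

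The 3 Pcl3 sites of Lhx3 measured 2100 bp (p-value of 1.12e-83), 600 bp (p-value of 9.34e-11) and 900 bp (p-value of 2.5e-17). Its 2 sites of decreased H3K27me3 measured 1050 bp (26057551 to 26058600, p-value of 4.66e-08) and 1950 bp (26061451 to 26063400, p-value of 9.27e-14). The wider one covered the Lhx3-001 start, shared 1400 bp with the 2400 bp depleted Suz12 site and contained the whole of the 450 bp retained Suz12 site. Thus at this position H3K27me3 was listed as decreased where Suz12 was not. This retained site began at 26062951, just past the end of the 2400 bp depleted site at 26062850.

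Lhx4, on the minus strand of chromosome 1 from 157548827 to 157589157, is the longest of the 10 genes. Its Suz12 sites were confined to the 5′ part, and 18.6% of its body was covered. A depleted site of 8300 bp over the start (157582601 to 157590900, p-value written as 0) lay under a Pcl3 site of 8650 bp. Further inside the gene, a depleted Suz12 site of 950 bp (p-value of 9.39e-20) had its nearest Pcl3 site 2500 bp away, and a Pcl3 site of 1400 bp (p-value of 2.34e-28) had its nearest Suz12 site 1900 bp away. The latter was the strongest of the 5 Pcl3 sites without Suz12 at these genes.

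Lhx2, required for eye and forebrain development, and Lhx9, required for gonad development, carried long chains of sites. Lhx2, on the plus strand of chromosome 2 from 38194801 to 38225253, had the most Suz12-covered bases of the 10 genes and ranked 16 among all protein-coding genes. Its 4 depleted sites measured 4000 bp (over the gene start, p-value of 1.09e-235), 3250 bp (p-value of 5.03e-284), 8850 bp (p-value written as 0) and 1400 bp (p-value of 4.76e-27). A Pcl3 site of 14550 bp, from 38201451 to 38216000, spanned the last 3 of these. The retained sites measured 550 bp (38195951 to 38196500, p-value of 1.91e-10) and 600 bp (38224151 to 38224750, p-value of 6.41e-10). They differed in their relation to Pcl3. The first lay next to the depleted site over the start and inside a Pcl3 site of 5950 bp, while the second lay in a coding exon at the 3′ end, 8150 bp from the nearest Pcl3 site.

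Lhx9, on the minus strand of chromosome 1 from 140721763 to 140745153, had 4 Suz12 sites, all depleted and all in the 5′ part of the gene. They measured 1000 bp (p-value of 1.15e-30), 900 bp (p-value of 9.76e-33), 3400 bp (p-value written as 0) and 4700 bp (over the start, p-value of 2.38e-307). All of the Suz12 bases lay in Pcl3 sites, whereas 76% of the Pcl3 bases lay in Suz12 sites. Pcl3 extended further into the gene, with 2 sites of 450 bp (p-value of 2.61e-08) and 700 bp (p-value of 1.5e-11) that shared no base with Suz12. Outside its own sites, Lhx9 was the most isolated of the 10 genes, with the nearest other Suz12 site 1871713 bp away. Neither Lhx2 nor Lhx9 had a site of decreased H3K27me3.

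Lhx6, which acts in cortical interneurons, and Lhx8, which acts in cholinergic neurons of the basal forebrain, had sites mainly around their starts. Lhx6, on the minus strand of chromosome 2 from 35937470 to 35960928, had a depleted site of 4600 bp over the start (35957151 to 35961750, p-value written as 0), matched by a Pcl3 site of 4550 bp (35957201 to 35961750, p-value of 1.55e-307). A depleted site of 1100 bp (p-value of 1.28e-49) shared bases with a Pcl3 site of 550 bp (p-value of 3.82e-11). A depleted site of 1450 bp (p-value of 6.17e-39) had its nearest Pcl3 site 1900 bp away and was the strongest Suz12 site without Pcl3 at these genes. Lhx8, on the minus strand of chromosome 3 from 153969260 to 153993615, had depleted sites of 3650 bp over the start (p-value written as 0) and 1950 bp upstream (p-value of 1.17e-78). A Pcl3 site of 7350 bp contained both. Lhx8 had the lowest Suz12 cover of the 10 genes and Lhx6 the third lowest, with no retained site at either.

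Isl1, which acts in motor neurons, the heart field and the pancreatic islet, and Isl2, which acts in motor neurons and retinal ganglion cells, showed opposite arrangements of a like amount of cover. Isl1, on the minus strand of chromosome 13 from 117088478 to 117099896, had 6 separate Suz12 sites of 800 bp to 1850 bp. The strongest, over the gene start from 117099001 to 117100850, had a p-value of 7.78e-81. Isl1 was the only one of the 10 genes with no Suz12 site whose p-value was written as 0. All 6 sites were depleted, and 5 shared bases with a Pcl3 site. The exception was the upstream site of 800 bp (p-value of 8.13e-18), 2600 bp from the nearest Pcl3 site. Isl2, on the plus strand of chromosome 9 from 55386479 to 55393987, had 1 depleted site of 7850 bp (55387151 to 55395000, p-value written as 0) and 1 Pcl3 site of 7700 bp (55387201 to 55394900). It was the only one of the 10 genes with no Suz12-covered base in the 5 kb upstream. Its outermost start belongs to a non-coding transcript and lay outside the site, while its coding start, 2476 bp further in, lay inside. The Suz12 cover of 6900 bp at Isl1 was thus spread over 6 sites and that of 7850 bp at Isl2 over 1.

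By start, 22 of the 23 distinct coding transcript starts of the 10 genes lay in a Suz12 site, 21 in a depleted site and 22 in a Pcl3 site. The exceptions were Lhx2-005, which lay in a Pcl3 site but not in a Suz12 site, and Lhx3-002, which lay in a retained Suz12 site without Pcl3. The centers of the 33 Suz12 sites lay in introns at 13 sites, in coding exons at 8, upstream at 6, downstream at 4, in a UTR exon at 1 and in a non-coding exon at 1. Suz12 was thus not limited to the starts, and a median of 44.4% of the gene body was covered (12.8% at Lhx8 to 98.3% at Lhx5).

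Site by site, 28 of the 33 Suz12 sites (84.8%) were depleted, beside 64.5% of all 8876 Suz12 sites. Sharing of bases with a Pcl3 site was found at 27 of the 33 (81.8%), beside 44.3% of all Suz12 sites. By depletion, 25 of the 28 depleted sites and 2 of the 5 retained sites shared bases with Pcl3. Sites of 1 gene share its locus and are not independent of one another. In bases, 96.8% of the Suz12 cover at the 10 genes was in depleted sites, beside 83.4% for all sites. Bases of H3K27me3-depleted sites were shared by 4 of the 33 Suz12 sites, beside 6.89% of all Suz12 sites, and these were the widest site of Lhx1 and 3 of the 4 sites of Lhx3, among them 1 retained site.

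The sites at these genes were also wider and stronger than Suz12 sites at large. Their median width was 1450 bp (450 bp to 11500 bp), beside 1100 bp, and their median strength 50.9, beside 26.2. The median strength of the 33 sites depended on the sites counted, with 32 when those with a p-value written as 0 were left out and 80.1 for those with a p-value of at most 1e-12. A p-value written as 0 was found at 10 of the 33, beside 4.9% of all sites, and 9 of the 33 measured at least 4 kb, beside 3.83%. The retained sites stood at the other end. Their widths were 450, 550, 550, 600 and 1050 bp and their strengths ran from 7.97 to 17.4 with a median of 9.19, whereas the depleted sites had a median width of 2175 bp (800 bp to 11500 bp) and a median strength of 85.9 (15.3 to 307). The ranges of retained and depleted sites overlapped through the Lhx1 retained site alone. The same contrast was present over the whole series, where retained sites had a median width of 650 bp and depleted sites of 1500 bp.

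**Figure D3:**
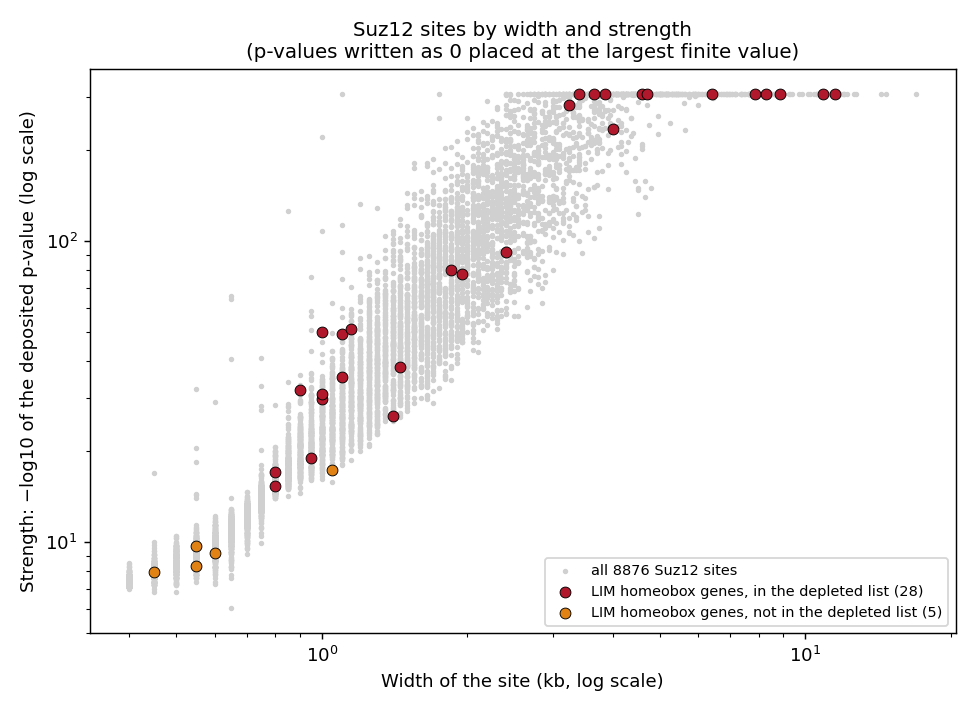
Each point is a Suz12 site, with its width in kb on the x axis and its strength, −log10 of the deposited p-value, on the y axis (both log scales); grey points are all 8876 sites, red points the 28 depleted and orange points the 5 retained sites at LIM homeobox genes. The retained sites lie at the narrow, weak end (strength 7.97 to 17.4), and sites with a p-value written as 0 form the row at 307.

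To set depletion beside sites of like strength, all Suz12 sites were divided into 10 equal groups by strength. From the weakest to the strongest group, the share of all sites that was depleted rose from 2.47% to 100%. Of the 33 sites at LIM homeobox genes, 13 were in the strongest group, 25 in the stronger 5 groups and 8 in the weaker 5. All 25 in the stronger 5 groups were depleted, and the 5 retained sites were in groups 1, 2 and 4. Weighted to the groups in which these 33 sites fell, 80.8% of all Suz12 sites were depleted, close to the 84.8% observed. For Pcl3 the weighted share was 61.7%, beside 81.8% observed. The depletion at these genes was thus near that of other sites of their strength, and the sharing with Pcl3 was above it, a difference for which no test was made.

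Of the 26 Pcl3 sites, 21 (80.8%) shared bases with a Suz12 site, beside 76.9% of all 5242 Pcl3 sites. The median width was 1575 bp (450 bp to 17500 bp), beside 850 bp, and the median strength 33.2, beside 16.3. The 5 Pcl3 sites without Suz12 lay at Lhx1 (850 bp), Lhx2 (550 bp), Lhx4 (1400 bp) and Lhx9 (450 bp and 700 bp), and each was 250 bp to 1900 bp from a Suz12 site of the same gene. They were poor in CpG, with 0.364 to 0.714 per 100 bp, while the 21 with Suz12 had 1.59 to 7.33, so the ranges did not overlap. The medians were 0.588 and 3.83, beside 1.33 and 6.15 for the corresponding Pcl3 sites of the whole series. Over the whole series the ranges did overlap, with 0 to 18.8 for the 1213 Pcl3 sites without Suz12 and 0.308 to 18.2 for the 4029 with Suz12.

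CpG dinucleotides were concentrated in the Suz12 sites of every one of the 10 genes. Within Suz12 sites the density was 3.26 (Lhx9) to 5.25 (Isl2) CpG per 100 bp, and in the rest of each gene plus 5 kb it was 0.828 (Lhx5) to 1.2 (Lhx3). The ratio of the densities was lowest at Lhx3 (3.22) and highest at Isl2 (5.63). Between 45.9% (Lhx4) and 92.9% (Lhx5) of all CpG of a gene and its flanks lay in its Suz12 sites.

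**Figure D4:**
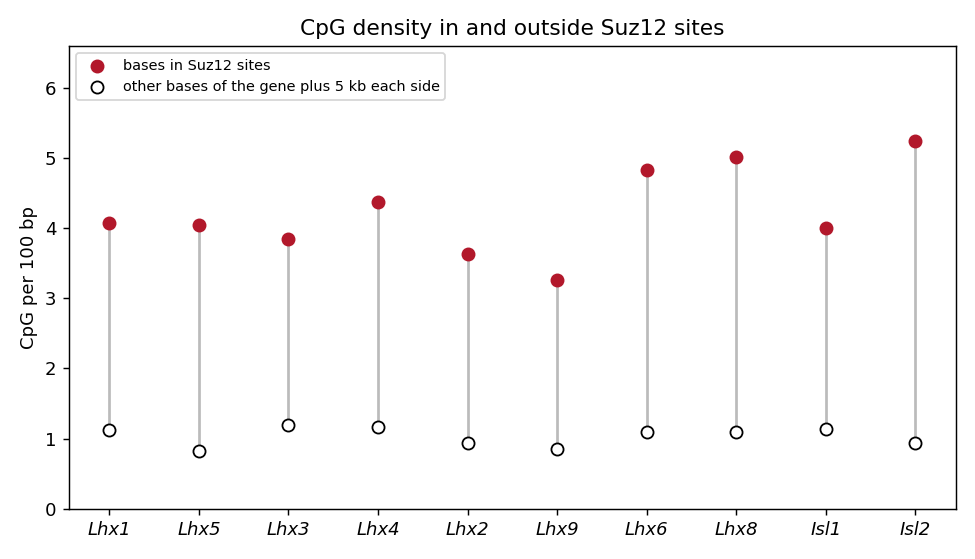
CpG per 100 bp in the bases covered by Suz12 sites (filled) and in the other bases of the gene plus 5 kb on each side (open) for each of the 10 genes, in the mm9 sequence. Filled points lie between 3.26 and 5.25 and open points between 0.828 and 1.2, with no overlap.

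As whole sites, however, these were less dense in CpG than Suz12 sites at large. The median over the 33 sites was 3.55 CpG per 100 bp (1.82 to 9.12), beside 5.41 over all Suz12 sites. The highest value, 9.12, was that of the site over the start of Aatf, the neighbour of Lhx1. In the strongest of the 10 groups the medians were 4 for the 13 sites and 5.34 for all. The densest 200 bp of each site differed less. It held a median of 18 CpG over the 33 sites and of 23 over all Suz12 sites. Among sites of the strongest group it held a median of 27 CpG at LIM homeobox genes (15 to 38) and of 29 in all. In that group the 13 sites were wider, with a median of 4700 bp beside 3550 bp, so their densest 200 bp was picked from more sequence. Wide sites such as that of Lhx4, with no CpG in the 200 bp at its center, thus held CpG-dense stretches as well as long CpG-poor ones. The retained sites had a median of 2.44 CpG per 100 bp (1.82 to 4.33) and the 28 depleted sites of 3.71 (2.07 to 9.12). Over the whole series the medians were close, 5.27 for retained and 5.45 for depleted sites.

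GCGCGC, a palindrome that reads the same on both strands, was searched in the central 500 bp of each Suz12 site. It was found at 8 of the 33 sites (24.2%), beside 37.5% of all Suz12 sites and 38.5% of all sites weighted to the same groups of strength. All 8 were depleted sites (8 of 28, 28.6%), and 0 of the 5 retained sites held it, beside 29.3% of all retained sites. The 8 include the 800 bp site over the start of Aatf, the neighbour of Lhx1. A match says only that these letters are in the window.

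The coding sequences of the pairs described above were 67.3% (Lhx6 and Lhx8) to 74% (Lhx2 and Lhx9) identical, and the other 40 pairs of the 10 genes 58.5% to 68%. For 9 of the 10 genes the named partner was the most identical, and for Lhx6 it was Lhx3 (67.7%). Partners of like coding sequence did not have like sets of sites in every respect. They differed in H3K27me3 (Lhx1 and Lhx3 against Lhx5 and Lhx4), in retained sites (Lhx1, Lhx2 and Lhx3 against Lhx5, Lhx9 and Lhx4) and in the number of Suz12 sites (6 at Isl1 and 1 at Isl2). The difference in retained sites depended on how sites were split. Both retained sites of Lhx3, and that of Lhx2 near its start, lay within 1 kb of a depleted site. With sites within 1 kb merged and counted as depleted if any part was, 90.9% of 22 sites were depleted. Lhx3 then had no retained site, while Lhx1 and Lhx2 each kept a retained site.

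The remaining LIM homeobox genes were Lmx1a and Lmx1b, which act in the roof plate, dopaminergic neurons and limb. Lmx1a had 2 Suz12 sites over 6800 bp, both depleted, and 2 Pcl3 sites. Lmx1b had 8 Suz12 sites over 26231 bp, of which 7 were depleted, together with 7 Pcl3 sites and 3 sites of decreased H3K27me3, and ranked 9 among protein-coding genes by Suz12 cover. Both thus resembled the 10 genes in carrying Suz12, depletion and Pcl3, and Lmx1b exceeded each of them in Suz12 cover. Cover was summed over the gene and its flanks, and these are longer genes. Their median length was 119520 bp, beside 17405 bp for the 10 genes.

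LIM-only genes, genes of LIM domain cofactors and genes of other LIM domain proteins carried less. Among 10 genes for LIM-only proteins or for cofactors that bind LIM homeodomain complexes, 7 had a Suz12 site, 4 a depleted site, 4 a Pcl3 site and 0 a site of decreased H3K27me3, with a median Suz12 cover of 1325 bp. The most covered were Lmo4 (3400 bp), Lmo1 (3022 bp) and Lmo2 (2600 bp). All 3 encode LIM-only proteins, which compete for the cofactor Ldb1, and Ldb1 itself had no Suz12 site. Among 31 genes for LIM domain proteins without a homeodomain, mostly of the cytoskeleton, 16 had a Suz12 site, 7 a depleted site and 2 a Pcl3 site, with a median cover of 400 bp. The most covered were Pdlim2 (2300 bp), Zyx (2000 bp), Lims2 and Pdlim4 (1600 bp each), and the 2 with a site of decreased H3K27me3 were Zyx and Tgfb1i1. Each of these genes had less Suz12 cover than Lhx8, the least covered of the 10.

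Transcription factors that act with LIM homeodomain proteins in motor and sensory neurons resembled the 10 genes more closely in the count of genes with sites and in Suz12 cover. Of 11 such genes, 10 had Suz12, depleted and Pcl3 sites and 3 had a site of decreased H3K27me3, with a median Suz12 cover of 6496 bp. Neurod4 had no Suz12 site. The most covered were Pax6 (15950 bp, also 1 of the Pax genes), Olig2 (12306 bp) and Nkx6-1 (11150 bp), and the genes with decreased H3K27me3 were Olig2, Nkx6-1 and Tlx3 (9150 bp). By site, 22 of their 33 Suz12 sites (66.7%) were depleted and 27 shared bases with Pcl3. The depleted share was thus near the 64.5% of all Suz12 sites and below the 84.8% of the 10 genes. Their median strength was 81.4, beside 50.9 at the 10 genes.

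Other homeodomain and paired domain families gave like counts. Suz12 and Pcl3 sites were both present at 8 of 9 Pax genes and 9 of 9 Dlx and Msx genes, and the median Suz12 cover was 11750 bp and 9196 bp. The share of Suz12 sites that was depleted was 80% (24 of 30) for Pax and 75.9% (22 of 29) for Dlx and Msx, beside 84.8% for the 10 LIM homeobox genes. The share that had bases in common with a Pcl3 site was higher in both families than at the LIM homeobox genes. It was 90% (27 of 30) for Pax and 86.2% (25 of 29) for Dlx and Msx, beside 81.8%. Their sites had higher median strengths, 109 and 130, than the 50.9 of the LIM homeobox genes. A site of decreased H3K27me3 was listed at 3 of 9 Pax genes and 4 of 9 Dlx and Msx genes. No difference between the 10 genes and these families was tested.

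**Figure D5:**
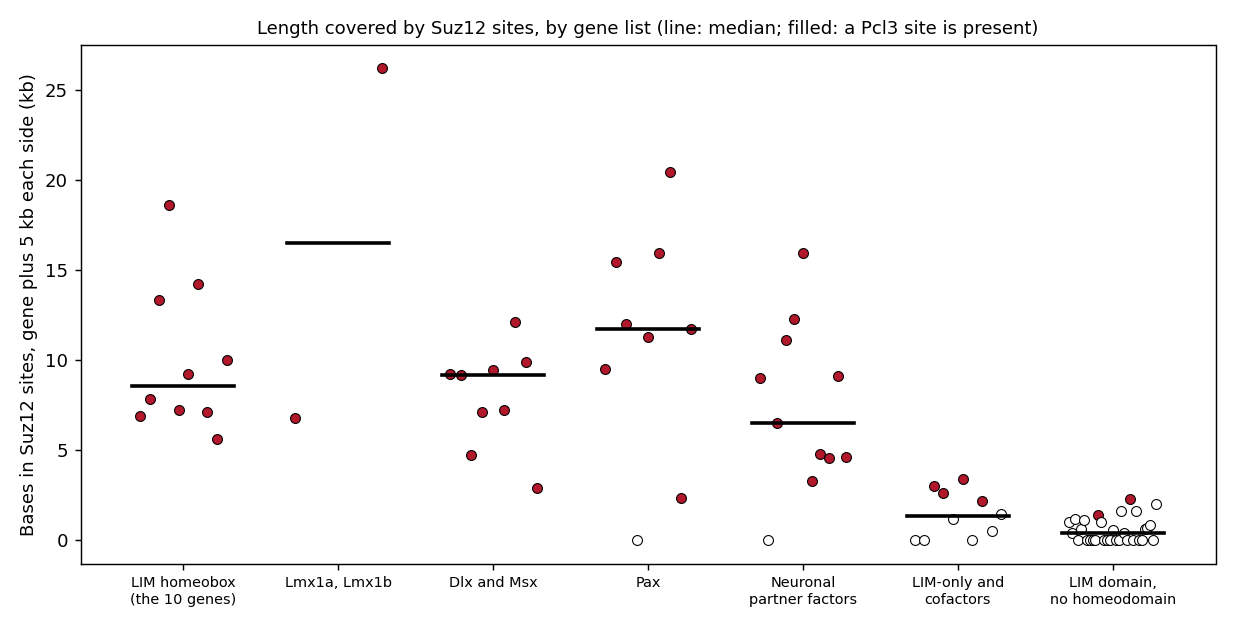
Each point is a gene, with the length in kb covered by Suz12 sites in the gene plus 5 kb on each side, by gene list; filled points have a Pcl3 site and lines are medians. The LIM homeobox genes lie among the other transcription factor families and above the LIM-only and LIM domain genes.

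By combination, 8 of the 10 genes had Suz12, Suz12-depleted and Pcl3 sites without a site of decreased H3K27me3, as 10.6% of protein-coding genes did, and 2 had sites of all 4 lists, as 2.24% did. Outside the genes and their 5 kb flanks, the nearest site of decreased H3K27me3 was 431778 bp (Lhx1) to 20547127 bp (Lhx4) away, so no such site lay just beyond the flanks of the 8 genes that had none.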

How the data were processed

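ChIP-seq site lists of Suz12, H3K27me3 and Pcl3-TAP from mouse ESCs were used. The authors aligned 30-nucleotide single-end reads to mm9 with bowtie (version not given in the sources used here), kept unique alignments, scaled paired libraries to the same background and called 400 bp windows by the Skellam distribution (cutoff 1e-07). They merged called windows into sites and deposited 1 newly computed p-value per site. Unique alignment leaves repeated sequence out, and the scaling assumes that it is alike in both libraries. Whether the 2 Pcl3-TAP libraries were pooled is not given in the sources used here. The paper reports counts of sequenced and aligned reads in a supplementary figure, which was not used here. The lists hold no reads, so depth at a site is unknown and no interval was computed for a site. Columns that were not used numbered 0.

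Genes and transcripts came from GENCODE vM1, whose NCBIM37 chromosomes hold every site, and printed sequences from that genome (mm9). Positions are 1-based. Sites were assigned with a flank of 5 kb and shared bases with at least 1 bp. Coding identity is the share of identical bases among aligned bases, gaps left out, in global pairwise alignments of the longest coding sequences. The 10 genes and all gene lists were chosen with earlier results of these data known. Every one of the 10 genes is named, as are Lmx1a and Lmx1b, in each other LIM or neuronal list the 3 genes with the most Suz12-covered bases and any with decreased H3K27me3, and neighbours sharing a window. Neurod4, Ldb1, Lhx2-005 and Lhx3-002 were named after their values were seen. A gene of the neuronal list and a family planned for comparison are not reported here. Alternatives were other flanks (0, 2 and 10 kb, or 2.5 kb around the start), stricter p-values, lists without chromosome 11, merged sites and other rules of sharing. The overlap functions were tested on simulated sites, with 0 of 600 different from a search of all pairs. Python 3.11.15, numpy 2.4.6, pandas 2.3.3, pysam 0.24.0, Biopython 1.88 and matplotlib 3.10.9 were used.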

Additional observations from a re-analysis of the deposited data

How the results depend on the processing

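Of 58 recomputed values, 55 stayed within their limits and 3 moved, where the limit was 1.5 times for a count of genes and the 95% binomial interval over sites or genes for a share or a median. That interval treats sites as independent, which sites of 1 gene are not, so it served as a yardstick and not as a test. Without chromosome 11, which holds Lhx1, 1 of the 9 remaining genes, Lhx3, had a site of decreased H3K27me3. Restricting the lists to p-values of at most 1e-10 or at most 1e-12 raised the share of depleted Suz12 sites to 96.6% of 29 sites in both cases, since 4 of the 5 retained sites were left out. The counts of genes with Suz12, depleted and Pcl3 sites stayed at 10 of 10, or 9 of 9 without chromosome 11, under every alternative run. The median strength changed by over 1.5 times, though within its wide interval, to 32 without sites whose p-value was written as 0 and to 80.1 with p-values of at most 1e-12. No paired analysis was possible because each condition has 1 library and no result comes from a test. No reads are in the lists, so what depth limits could not be worked out from them.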
